A study of Mus musculus with 15 samples.

Results

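Heme oxygenase and the glutathione, thioredoxin and quinone enzymes that protect cells from oxidants were read in fibroblasts that expressed 1 of 4 C/EBP transcription factors. The genes were Hmox1, Gclm, Gclc, Gsr, Glrx, Txn1, Txnrd1, Nqo1 and Prdx1. Every probe set whose annotation named 1 of these 9 genes and no other gene was taken, which gave 9 of the 12422 probe sets of the array, for 8 of the 9 genes. Nqo1 had 2 probe sets and the other 7 genes had 1 each. Both probe sets of Prdx1, a peroxiredoxin, also named Gm21399, so no value is given for it.

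Expression was measured on 15 Affymetrix MG_74Av2 arrays with RNA of NIH 3T3 cells, a fibroblast line derived from mouse embryos. The cells carried a plasmid with a zinc-inducible metallothionein promoter and a human cDNA for C/EBP alpha, C/EBP beta, C/EBP delta or C/EBP epsilon, or the same plasmid without an insert (vector). Each of the 5 groups had 3 arrays, and the labels put the question which genes differ between them. All cells, vector included, had been selected with G418 and had received zinc sulphate for 16 h.

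The labels call the transfectants polyclonal and the 3 cultures of a group triplicate clones. They do not say whether these came from separate transfections, so p-values cover the spread between these cultures alone. The level of the introduced human factors was not measured here, and cells without zinc were not analysed here. C/EBPs are bZIP transcription factors known from the differentiation of fat, liver and myeloid cells.

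Hmox1 breaks heme down to biliverdin, iron and carbon monoxide and is a classic target of heavy metals, heme and oxidants. The transcription factor Nfe2l2 (Nrf2) activates many genes of this set through antioxidant response elements with a small Maf partner, and Bach1 represses Hmox1 through the same elements. Glutathione is made in a first step by Gclc with its regulatory subunit Gclm, is returned to its reduced form by Gsr, and serves Glrx to remove glutathione from proteins. Txn1 reduces protein disulphides in parallel and is itself reduced by Txnrd1.

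Promoter sequence came from RefSeq on GRCm38.p6, whose table held windows for 5 of the 8 measured genes (Gclm, Txn1, Nqo1, Txnrd1 and Glrx, 8 windows in all). The 250 bases before each start were searched on both strands for a C/EBP motif (TTGCNNAA), an antioxidant response element (TGACNNNGC) and an AP-1 motif (TGANTCA). The last 2 motifs can share letters where TGAC is followed by TCA. The motifs were picked with results of these data known. Below are the bases before the annotated gene start of Glrx, the gene with the largest rise of the set, and of Gclm, the glutathione gene whose window held an antioxidant response element. The matched motif is in capitals.
Glrx (chr13:75839635-75839884, plus strand): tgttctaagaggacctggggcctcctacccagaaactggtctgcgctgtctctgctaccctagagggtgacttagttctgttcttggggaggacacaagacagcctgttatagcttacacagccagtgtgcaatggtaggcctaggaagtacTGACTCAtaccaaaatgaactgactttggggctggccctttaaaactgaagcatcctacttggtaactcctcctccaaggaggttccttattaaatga
Gclm (chr3:122245307-122245486, plus strand): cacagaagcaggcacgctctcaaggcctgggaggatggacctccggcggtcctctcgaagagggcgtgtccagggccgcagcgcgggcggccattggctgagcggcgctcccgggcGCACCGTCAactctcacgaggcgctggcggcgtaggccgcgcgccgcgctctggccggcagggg

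The Glrx match to AP-1 lay 98 to 92 bases before the gene start, and 6.75% of all 32851 windows held this motif. The Gclm match to the antioxidant response element was on the opposite strand, 64 to 56 bases before the gene start, and Txnrd1 held another match in 1 of its 3 windows. That motif was in 10.2% of all windows. The C/EBP motif was in 0 of the 8 windows and in 9.56% of all windows. These matches are letters in a window and were not tested as binding sites.

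Signals are linear intensities from Microarray Suite, divided here by each array's median and brought back to the common scale. Deposited values ran from 0.5 to 256543.7 units, and array medians from 994.6 to 1153.95. Log2 values correlated at 0.929 to 0.965 between arrays of a group and at 0.880 to 0.961 between groups. Probe sets above 1092 units on at least 3 arrays were tested, 6963 in all, and the 9 probe sets described here were above that limit on every array. Of 12 fibroblast markers 10 passed the same filter (not Vim or Lum), among them Col1a1, Col1a2, Fn1 and Pdgfra. Of 6 fat cell markers on the array 1 passed, Lep, at 3774 units in delta to 5010 in epsilon cells. Fabp4 and Adipoq did not pass. Of 6 epithelial markers 1 passed, Cdh1, at 2649 units in beta to 2973 in vector cells. Of 8 myeloid markers 3 passed, and the leukocyte gene Ptprc did not. An adjusted p is from limma's moderated test on log2 signals, with Benjamini-Hochberg adjustment over all 6963 probe sets, and a gene is said to rise or fall where it was under 0.05. Against vector, the fibroblast markers Col1a1, Col3a1 and Pdgfrb rose in beta cells (adjusted p = 0.0232, 0.00159 and 0.0310). Col3a1 also rose in epsilon cells (0.00116), and Thy1 fell in alpha cells (0.0123). The other tested fibroblast markers were not called against vector.

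**Figure D1:**
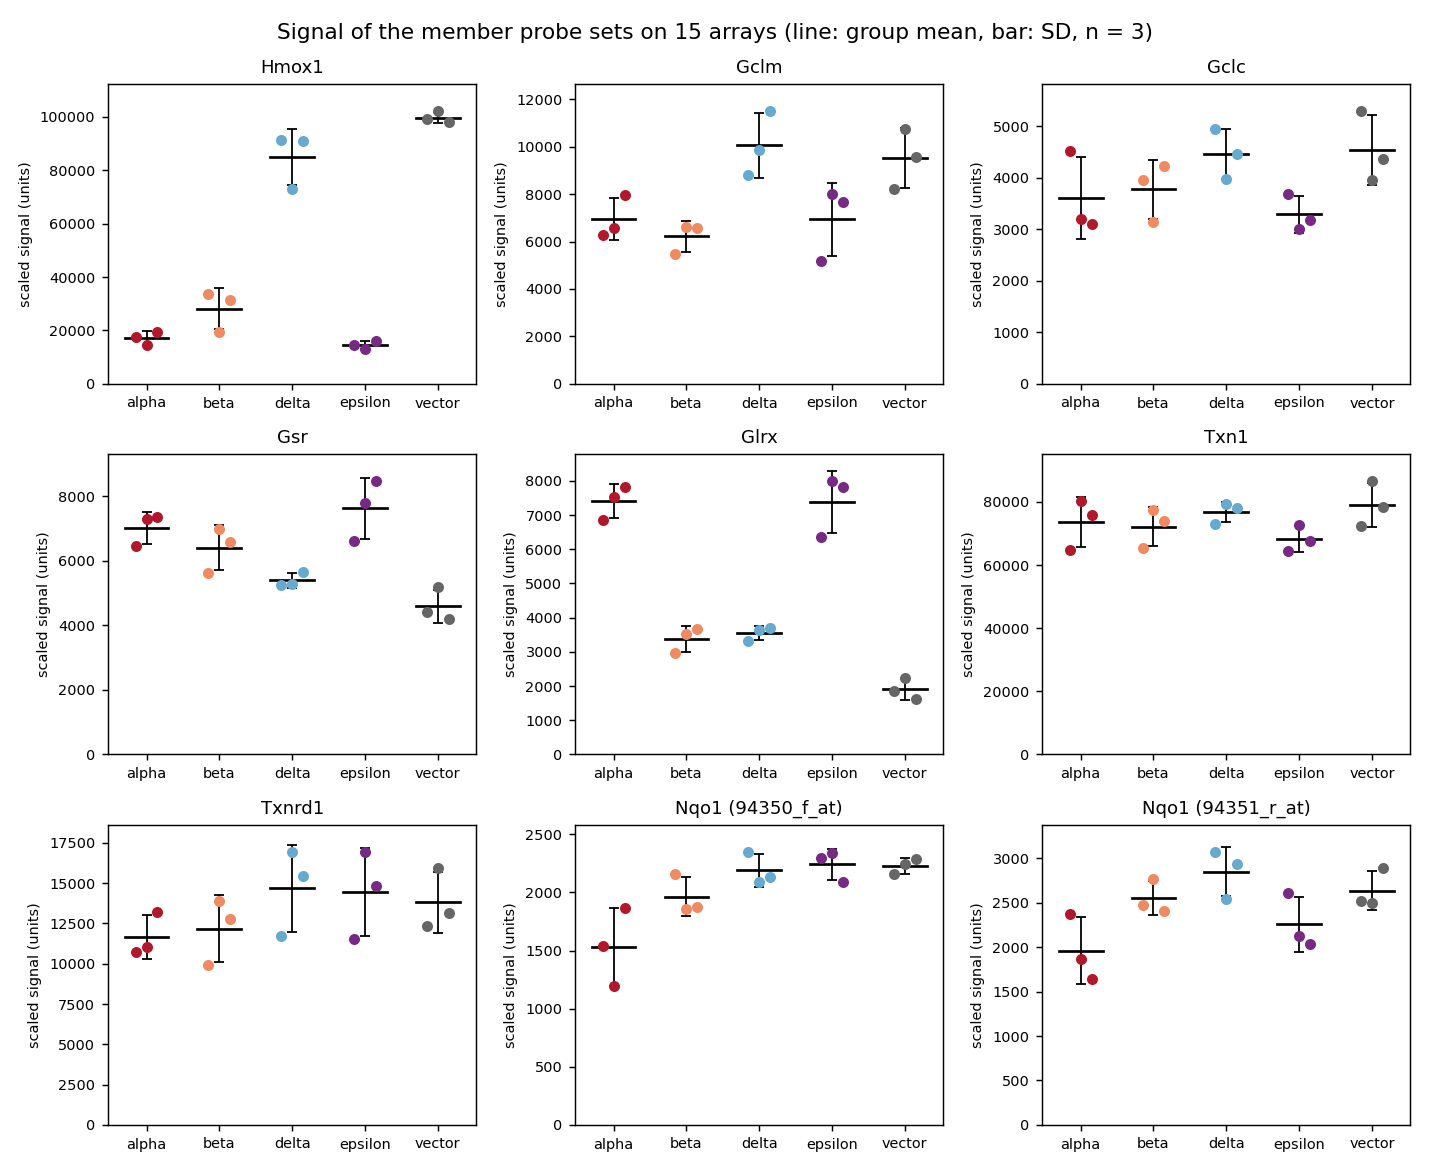
Scaled signal (units, linear axis from 0) of each probe set on each array, by group; points are arrays, lines are group means and bars are SD (n = 3). Hmox1 lies at 12969 to 33653 units on the alpha, beta and epsilon arrays and at 72911 to 102191 units on the delta and vector arrays, while Glrx is lowest on the vector arrays.

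Hmox1 (chr8:75093618-75100593, GRCm38.p6) fell steeply in cells with C/EBP alpha, beta or epsilon. It read 17704, 14447 and 19342 units on the 3 C/EBP alpha arrays, 33653, 19597 and 31329 on the C/EBP beta arrays, 91209, 72911 and 90778 on the C/EBP delta arrays, 14515, 12969 and 16226 on the C/EBP epsilon arrays, and 99003, 102191 and 97965 on the vector arrays. Every C/EBP array was below every vector array, but the delta arrays lay close under vector and the other 9 far below it. Of all tested probe sets, 28.1% had no overlap with vector in alpha, 27.1% in beta, 11.7% in delta and 29.8% in epsilon cells. No share was computed for several groups together, for Hmox1 or for the genes below. Hmox1 was 6.87-fold lower in epsilon than in vector cells (95% interval 5.27 to 8.96, log2 -2.78, SE 0.18, adjusted p = 1.6e-08). It was 5.85-fold lower in alpha cells (interval 4.49 to 7.63, adjusted p = 4.7e-08) and 3.63-fold lower in beta cells (interval 2.79 to 4.74, adjusted p = 6.6e-06). In delta cells it averaged 84966 ± 10442 units, against 99720 ± 2202 in vector cells (SD, n = 3 each). That difference was not called (log2 -0.24, interval -0.62 to 0.14, adjusted p = 0.940).

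The differences between the C/EBPs in Hmox1 were tested directly. Delta cells had 4.96-fold more Hmox1 signal than alpha cells (interval 3.81 to 6.46, adjusted p = 3.0e-07) and 3.08-fold more than beta cells (interval 2.36 to 4.01, adjusted p = 5.1e-05). Epsilon cells had 5.83-fold less than delta cells (interval 4.47 to 7.59, adjusted p = 6.7e-08). Epsilon cells were also 1.89-fold below beta cells (interval 1.45 to 2.46, adjusted p = 0.00905), a call that was lost without beta replicate 1 (adjusted p = 0.0551), without beta replicate 3 (0.0688), without the 5 arrays numbered 1 (0.150) or when epsilon and beta arrays alone were fitted (0.0850). Beta and alpha cells fell just short of the threshold (log2 0.69, interval 0.31 to 1.07, adjusted p = 0.0512). Every beta array was above every alpha array, but the share of all probe sets without overlap was not computed between C/EBPs. Without beta replicate 2, the lowest of its group, that difference was called (log2 0.93, adjusted p = 0.00243). It was called in 5 of the 28 other fits in all.

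The order of Hmox1 levels was vector, delta, beta, alpha and epsilon. Within it, vector and delta, beta and alpha, and alpha and epsilon did not pass the test as neighbours, and delta and beta did. For epsilon against alpha the log2 difference was -0.23 with an interval of -0.61 to 0.15.

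Of 5 measured genes listed for the metal response, 3 fell in alpha cells (Slc30a1, Mt2 and Mt3). In beta cells 2 fell (Slc30a1 and Mt2), and in epsilon cells 2 (Slc30a1 and Mt3). Whether each listed gene responds to zinc in these cells was not tested. The share of all tested probe sets called lower was 7.15%, 4.18% and 6.91% in these groups. In delta cells 0 fell, and 0 of the 5 reached an unadjusted p of 0.05 in limma's test there. The zinc exporter Slc30a1 averaged 1172 ± 228 units in alpha, 1080 ± 149 in beta, 1899 ± 88.3 in delta and 1378 ± 73.4 in epsilon cells, against 2183 ± 37.3 in vector cells. The metallothionein Mt2, a metal-binding protein, averaged 101149 ± 21048 units in alpha, 87696 ± 7597 in beta, 130638 ± 3305 in delta and 113951 ± 14798 in epsilon cells, against 155339 ± 17063 in vector cells. Slc30a1 was called in alpha, beta and epsilon cells (log2 -0.92, -1.02 and -0.66, adjusted p = 0.00184, 0.00137 and 0.0171), and Mt2 in alpha and beta cells (log2 -0.63 and -0.82, adjusted p = 0.0106 and 0.00295). Mt3, another metallothionein, averaged 7616 ± 1421 units in alpha, 8587 ± 805 in beta, 9099 ± 2900 in delta and 6797 ± 1117 in epsilon cells, against 11849 ± 1917 in vector cells (SD, n = 3 each). Mt3 was called at log2 -0.64 in alpha cells (adjusted p = 0.0483) and -0.80 in epsilon cells (adjusted p = 0.0138). Its alpha call was lost in 14 of the 28 other fits, 9 of which left out 1 array (alpha replicate 2 or 3, any 1 beta array, delta replicate 2, epsilon replicate 3, or vector replicate 2 or 3, adjusted p = 0.0525 to 0.182). Its epsilon call was lost without epsilon replicate 2 (0.0644), without vector replicate 3 (0.0666) and with no filter (0.0535). The Mt2 call in alpha cells was lost without alpha replicate 1 (adjusted p = 0.0554) and with no filter (0.0646). The Slc30a1 call in epsilon cells was lost without epsilon replicate 2 (0.0567), vector replicate 1 (0.0574), vector replicate 3 (0.0508) or the 5 arrays numbered 1 (0.102). The plasmid's promoter is of a metallothionein gene too, and the part of the metal response in the Hmox1 result was not tested.

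Among the markers of other cell types, Cd68, a lysosomal protein abundant in macrophages, moved like Hmox1. It averaged 766 units in alpha, 1552 in beta, 2811 in delta and 1121 in epsilon cells, against 3103 in vector cells (adjusted p = 8.8e-08, 4.9e-04, 0.988 and 4.6e-06 in the same order). Of the 8 myeloid markers 3 passed the filter (Csf1r, Lyz2 and Cd68), and Adgre1, Ptprc, Itgam, Mpo and Elane did not. Lyz2 was higher in alpha cells (log2 1.88, adjusted p = 4.7e-04). The 8 markers summed to 9014 to 11417 units in alpha, 7755 to 9544 in beta, 8784 to 8998 in delta and 7517 to 10231 in epsilon cells, against 10853 to 11261 in vector cells. The part of these markers in the Hmox1 result was not tested. In these bulk RNA samples, fewer cells of a kind and less RNA per cell cannot be told apart.

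Glrx (chr13:75839885-75850151), the glutaredoxin, rose in all 4 C/EBP groups. It read 6861, 7526 and 7836 units on the alpha arrays, 2953, 3521 and 3654 on the beta arrays, 3312, 3648 and 3703 on the delta arrays, 6357, 7987 and 7823 on the epsilon arrays, and 1848, 2235 and 1625 on the vector arrays. All 12 C/EBP arrays were above all 3 vector arrays, and the share of all probe sets for the 4 groups together was not computed. The alpha and epsilon arrays all lay above the beta and delta arrays, a split for which no share of all probe sets was computed. Glrx was 3.92-fold higher in alpha cells (interval 3.17 to 4.85, adjusted p = 6.3e-08) and 3.90-fold higher in epsilon cells (interval 3.15 to 4.82, adjusted p = 7.5e-08) than in vector cells. It was 1.78-fold higher in beta cells (interval 1.44 to 2.20, adjusted p = 0.00131) and 1.88-fold higher in delta cells (interval 1.52 to 2.33, adjusted p = 0.00528). The delta call was lost when only delta and vector arrays were fitted (adjusted p = 0.0794) and without the 5 arrays numbered 1 (0.0563).

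For Glrx the split among the C/EBPs passed the test. Beta cells were 2.20-fold below alpha cells (adjusted p = 1.5e-04) and delta cells 2.08-fold below alpha cells (adjusted p = 1.4e-04). Epsilon cells were 2.19-fold above beta cells (adjusted p = 2.1e-04) and 2.07-fold above delta cells (adjusted p = 1.4e-04). Epsilon and alpha cells differed by log2 -0.01 (interval -0.31 to 0.30, adjusted p = 0.995), and delta and beta cells by log2 0.08 (interval -0.23 to 0.38, adjusted p = 0.850).

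**Figure D2:**
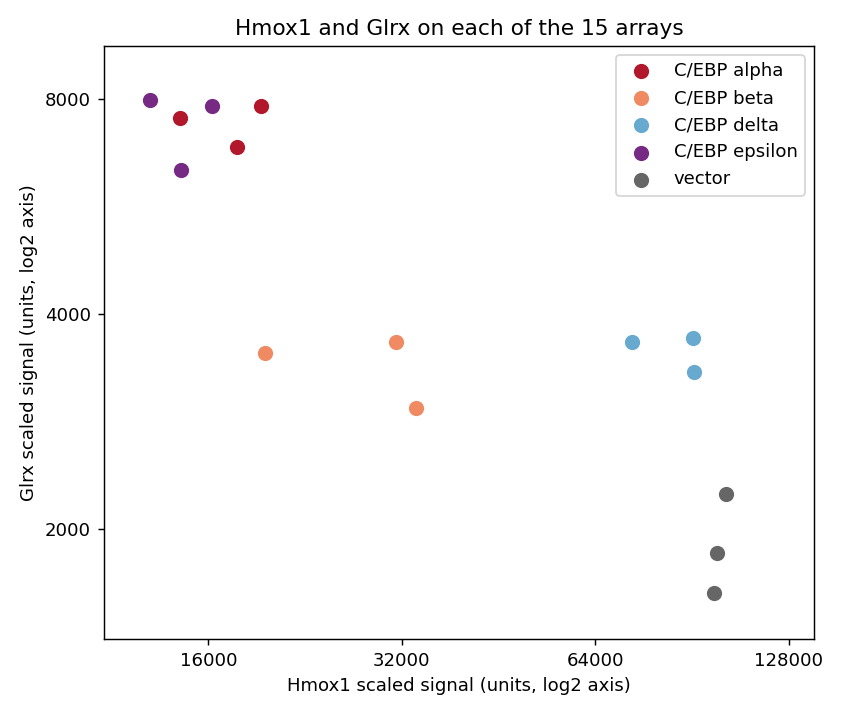
Hmox1 signal (units, log2 axis) against Glrx signal (units, log2 axis) on each of the 15 arrays, coloured by group. The alpha and epsilon arrays hold low Hmox1 and high Glrx, the vector arrays the reverse, the beta arrays lie between, and the delta arrays join near-vector Hmox1 with Glrx at the beta level.

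Set side by side, delta cells had 84966 ± 10442 units of Hmox1 and 3555 ± 212 units of Glrx, against 99720 ± 2202 and 1903 ± 309 in vector cells. Beta cells, with Glrx at 3376 ± 373 units, had 28193 ± 7534 units of Hmox1. Delta and beta cells thus differed in Hmox1 by test, and for Glrx the interval of their difference included 0.

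Gsr (chr8:33653238-33698162), which returns oxidised glutathione to its reduced form at the cost of NADPH, rose in 3 groups. It read 6458, 7287 and 7351 units on the alpha arrays, 5635, 6999 and 6584 on the beta arrays, 5238, 5290 and 5665 on the delta arrays, 6609, 7807 and 8464 on the epsilon arrays, and 4409, 5177 and 4190 on the vector arrays. Every C/EBP array was above every vector array, again without a share of all probe sets for the groups together. Gsr rose 1.66-fold in epsilon cells (interval 1.37 to 2.01, adjusted p = 0.00113) and 1.54-fold in alpha cells (interval 1.26 to 1.86, adjusted p = 0.00382). In beta cells it rose 1.40-fold (interval 1.15 to 1.69, adjusted p = 0.0303). The beta call was lost without beta replicate 2 or 3 (adjusted p = 0.119 and 0.108), without vector replicate 1 or 3 (0.0928 and 0.127), when the 5 arrays numbered 1 were left out (0.0838) and when beta and vector arrays alone were fitted (0.0984). In delta cells Gsr was not called (log2 0.24, interval -0.04 to 0.52, adjusted p = 0.879). Epsilon cells were 1.41-fold above delta cells (adjusted p = 0.0282), and that call was lost without any 1 delta array (adjusted p = 0.0616 to 0.0856) and without epsilon replicate 2 or 3 (0.0812 and 0.133). It was also lost when epsilon and delta arrays alone were fitted (0.0671) and without the 5 arrays numbered 1 (0.0659).

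Gclm (chr3:122245487-122267215), the regulatory subunit of glutamate-cysteine ligase, leaned the other way. It read 6282, 6590 and 7962 units on the alpha arrays, 5476, 6620 and 6578 on the beta arrays, 8788, 9864 and 11504 on the delta arrays, 5174, 7988 and 7652 on the epsilon arrays, and 8233, 10748 and 9548 on the vector arrays. The alpha, beta and epsilon arrays were all below the vector arrays, and the delta arrays overlapped them. Gclm fell 1.52-fold in beta cells (interval 1.18 to 1.96, adjusted p = 0.0346), and that call was lost without any 1 beta array (adjusted p = 0.0598 to 0.119) without vector replicate 2 or 3 (0.105 and 0.1001), with no filter (0.0844) and with no trend (0.0574). Its log2 differences were -0.45 in alpha cells (interval -0.82 to -0.09, adjusted p = 0.0963), -0.47 in epsilon cells (interval -0.84 to -0.11, adjusted p = 0.0723) and 0.08 in delta cells (interval -0.28 to 0.44, adjusted p = 0.996). Under quantile normalization the alpha and epsilon differences were called (adjusted p = 0.0345 and 0.0101), as they were with no further scaling (0.0364 and 0.0152) and with scaling by the median ratio (0.0472 and 0.0228). The alpha difference was also called without epsilon replicate 1 (0.0462). With the replicate block both were called too (0.0100 and 0.00695). In all, the alpha difference was called in 5 and the epsilon difference in 4 of the 28 other fits. Delta cells had 1.61-fold more Gclm than beta cells (adjusted p = 0.0277), and this call was lost without any 1 beta array (0.0572 to 0.102) and without delta replicate 2 or 3 (0.0798 and 0.137). It was also lost with no filter (0.0793), with no trend (0.0507) and without the 5 arrays numbered 1 (0.0510).

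Gclc (chr9:77754535-77794489), the catalytic subunit of the same enzyme, was not called in any group, although in epsilon cells it was called in 2 of the 28 other fits. It averaged 3606 ± 792 units in alpha, 3775 ± 569 in beta, 4468 ± 489 in delta and 3290 ± 354 in epsilon cells, against 4543 ± 685 in vector cells. The epsilon arrays all lay below the vector arrays (log2 -0.46, interval -0.82 to -0.10, adjusted p = 0.0804), and the other groups overlapped vector (log2 -0.34 in alpha, -0.27 in beta and -0.02 in delta cells).

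The thioredoxin pair was not called in any of the 4 comparisons with vector, although Txn1 was called in epsilon cells in 1 of the 28 other fits. Txn1 (chr4:57943373-57956411) averaged 73622 ± 7958 units in alpha, 72200 ± 6197 in beta, 76755 ± 3219 in delta and 68226 ± 4071 in epsilon cells, against 79059 ± 7076 in vector cells. Its log2 differences were -0.10, -0.13, -0.04 and -0.21, and their intervals together reached from -0.48 to 0.23. Txnrd1 (chr10:82833951-82897724), the selenoenzyme that reduces Txn1 with NADPH, averaged 11658 ± 1366 units in alpha, 12185 ± 2053 in beta, 14698 ± 2699 in delta and 14452 ± 2709 in epsilon cells, against 13824 ± 1891 in vector cells. Its log2 differences were -0.24, -0.19, 0.08 and 0.06, with intervals from -0.62 to 0.46. Arrays of every C/EBP group overlapped the vector arrays for both genes.

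Nqo1 (chr8:107388225-107403205), which reduces quinones and is a standard readout of the antioxidant response, was read by 2 dimmer probe sets whose suffixes (_f_at and _r_at) mark probes chosen under relaxed design rules. The f probe set read 1535, 1195 and 1865 units on the alpha arrays, against 2157, 2242 and 2288 on the vector arrays. The r probe set read 2377, 1863 and 1643 units on the alpha arrays, against 2523, 2497 and 2891 on the vector arrays. Both placed all alpha arrays below all vector arrays. The f probe set was called 1.48-fold lower in alpha cells (interval 1.17 to 1.87, adjusted p = 0.0258) and the brighter r probe set was not (1.36-fold lower, interval 1.07 to 1.72, adjusted p = 0.0811). The f call was lost without alpha replicate 1 or 2 (adjusted p = 0.0538 and 0.120), without any 1 vector array (0.0547 to 0.0786), without the 5 arrays numbered 1 (0.139) and when alpha and vector arrays alone were fitted (0.107). The r probe set was called in 3 of the 28 other fits, with array weights (0.0401) and without alpha replicate 1 (0.0279) among them. In beta, delta and epsilon cells log2 differences of the 2 probe sets ran from -0.23 to 0.11 and were not called. Delta cells were above alpha cells on both (log2 0.54 and 0.55, adjusted p = 0.0497 and 0.0419), calls that were lost in 19 and 12 of 28 other fits, on the f and r probe set in that order. The lost fits of the f probe set left out alpha replicate 1 or 2, or any 1 array of the other 4 groups, among other changes.

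**Figure D3:**
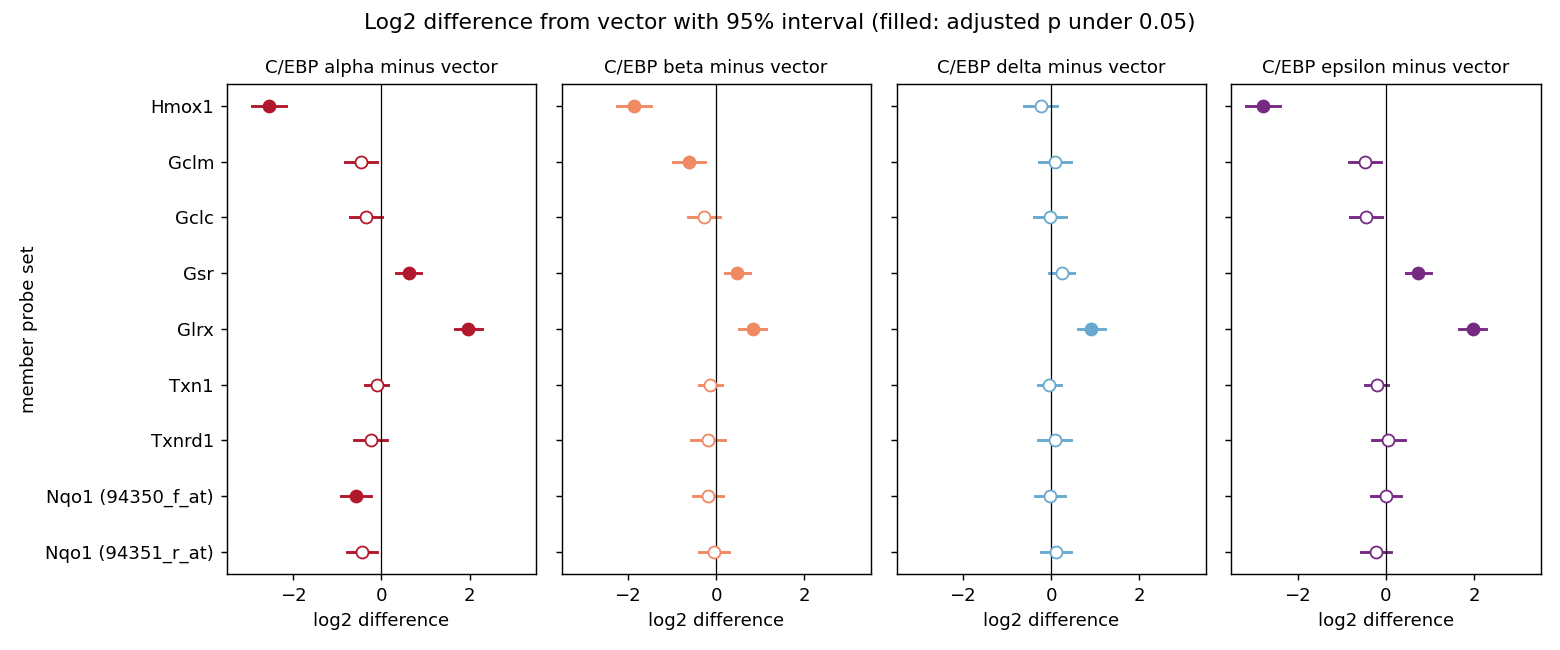
Log2 difference from vector of each probe set, with its 95% interval, in 1 panel per C/EBP; filled points passed an adjusted p of 0.05. Hmox1 stands far left of 0 in alpha, beta and epsilon cells (-2.55, -1.86 and -2.78) but not in delta cells (-0.24), and Glrx lies right of 0 in all 4 panels.

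Counted by the brighter probe set of each gene, 2 of the 8 genes rose and 1 fell in alpha cells, where 14.3% of all tested probe sets were called (7.17% higher and 7.15% lower). In beta cells 2 rose and 2 fell, beside 9.31% of all probe sets (5.13% higher and 4.18% lower). In delta cells Glrx alone rose and 0 fell, beside 0.359% of all probe sets. Glrx was also the only 1 of the 8 genes with an unadjusted p under 0.05 in delta cells, and 0 of all 6963 probe sets were called lower there. In epsilon cells 2 rose and 1 fell, beside 16.3% (9.38% higher and 6.91% lower). The median log2 difference of the 8 genes was -0.29 in alpha, -0.16 in beta, 0.08 in delta and -0.22 in epsilon cells, and that of all tested probe sets was 0.0036, 0.035, 0.012 and 0.076. These 4 comparisons share the vector arrays. Any difference among the 5 groups was called by the moderated F-test for 4 of the 8 genes (Hmox1, Glrx, Gsr and Gclm), beside 16.5% of all probe sets.

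Between the C/EBPs, by the same brighter probe sets, 0 of the 8 genes were called between epsilon and alpha cells. There 0 of these probe sets had an unadjusted p under 0.05 in limma's test, and 1.31% of all probe sets were called. The dimmer f probe set of Nqo1 read higher in epsilon than in alpha cells (log2 0.57, interval 0.23 to 0.91). Its unadjusted p in that test was 0.00265, and it was not called (adjusted p = 0.122). Beta and alpha cells differed in Glrx (2.86% of all probe sets). Delta and alpha cells differed in 3 genes (8.40%), delta and beta cells in 2 (4.77%), epsilon and beta cells in 2 (2.34%), and epsilon and delta cells in 3 (8.21%).

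The 5 probe sets of other genes most like Hmox1, by the root mean square difference of centred log2 values over the 15 arrays, were those of Procr (0.217), Hgsnat (0.285), Zfand2a (0.291), Cryab (0.292) and Ppp1r15a (0.324). Procr encodes the endothelial protein C receptor, Cryab a small heat shock protein, and Ppp1r15a a phosphatase subunit of the stress response. Each fell in alpha, beta and epsilon cells (log2 -2.36 to -2.87, -1.41 to -2.05 and -2.21 to -2.98), and their log2 differences in delta cells were -0.14 to -0.36 and not called. By the same measure, chosen for Glrx after its values were seen, its nearest probe sets were those of the chemokine Cxcl5 (0.203), the oncostatin M receptor Osmr (0.215), the growth factor Fgf7 (0.246), Apbb1ip (0.261) and Xdh (0.261), the xanthine dehydrogenase. All 10 genes were picked for this likeness, so their differences from vector are a description.

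**Figure D4:**
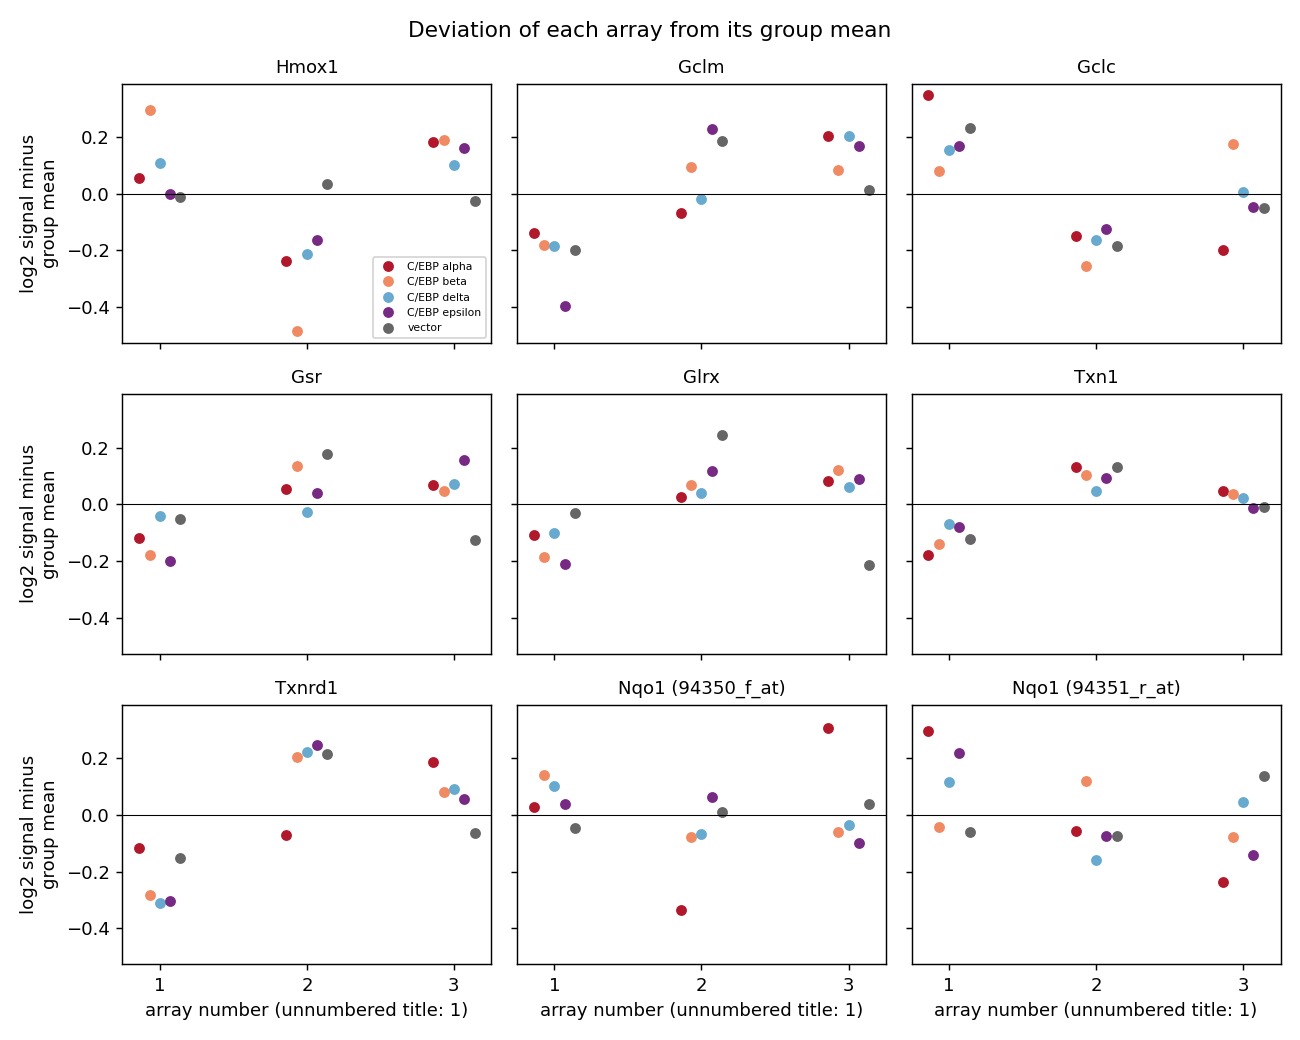
Log2 signal of each array minus the mean of its group, by the number in the array's title (titles without a number counted as 1), in 1 panel per probe set and coloured by group. For Gclm, Txn1 and Txnrd1 the arrays numbered 1 lie lowest in all 5 groups.

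Arrays numbered 1 in their titles stood apart for several of these genes. The number 1 array was the lowest of its group in 5 of 5 groups for Gclm, Txn1 and Txnrd1, as it was for 9.08% of all tested probe sets. It was the lowest in 4 of 5 groups for Gsr and Glrx, and the highest in 4 of 5 groups for Gclc. No share of all probe sets was computed for 4 of 5 groups or for the highest array. For Hmox1 the number 1 array was the lowest in 0 groups. The number 2 array read lowest for Hmox1 in alpha, beta, delta and epsilon cells (14447, 19597, 72911 and 12969 units) and highest in vector cells (102191). The share of all probe sets with that order was not computed. The labels do not say what the number stands for. Hmox1 in alpha, beta and epsilon cells, Glrx in alpha, beta and epsilon cells, and Gsr in alpha and epsilon cells passed without the 5 arrays numbered 1, and in all of the 28 other fits.

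The wider antioxidant system was read through 9 lists of other genes, each gene by its brightest tested probe set. The lists were drawn up with earlier results of these data known. Every count below stands beside the shares of all tested probe sets called higher and lower. These were 7.17% and 7.15% in alpha, 5.13% and 4.18% in beta, 0.359% and 0% in delta, and 9.38% and 6.91% in epsilon cells. The list counts were not tested against these shares. Among the 25 genes named from them there were 52 calls against vector, of which 22 held in all of the 28 other fits. Values of individual genes below are for those 22 calls unless the loss is given.

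Of 7 measured regulators of the response, 1 rose and 2 fell in alpha cells, 0 rose and 2 fell in beta cells, and 2 rose and 3 fell in epsilon cells. In delta cells 0 were called, with 1 at an unadjusted p under 0.05. Nfe2l2 averaged 7568 ± 742 units in alpha, 5745 ± 324 in beta, 6665 ± 1069 in delta and 7728 ± 976 in epsilon cells, against 4807 ± 719 in vector cells. It was called higher in alpha and epsilon cells (log2 0.66 and 0.69, adjusted p = 0.00532 and 0.00408), where Hmox1 was lowest, but not without the 5 arrays numbered 1 (adjusted p = 0.121 and 0.0522). Its small Maf partner Mafk fell in alpha and epsilon cells (log2 -1.39 and -1.27, adjusted p = 0.00388 and 0.00737). Sqstm1, the p62 adaptor that binds Keap1, fell there too (log2 -0.93 and -0.99, adjusted p = 0.00117 and 7.7e-04). In beta cells Mafk and Sqstm1 also fell (log2 -1.18 and -0.74, adjusted p = 0.0192 and 0.0108). These beta calls were lost in 4 and 2 of the 28 other fits. Bach1 was not called and read log2 -0.59, -0.50, -0.04 and -0.40 in alpha, beta, delta and epsilon cells.

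Of 7 other genes of glutathione synthesis and reduction, 1 rose and 1 fell in each of alpha, beta and epsilon cells, and 0 were called in delta cells, where 0 had an unadjusted p under 0.05. The gene that rose was Glo1 (log2 0.38, 0.44 and 0.56 in alpha, beta and epsilon cells, adjusted p = 0.0481, 0.0322 and 0.00434). These Glo1 calls were lost in 18, 6 and 1 of the 28 other fits, in that order. Slc3a2, the heavy chain of the cystine importer and of other amino acid transporters, averaged 12181 ± 434 units in alpha, 16313 ± 1213 in beta, 29153 ± 4900 in delta and 13188 ± 2183 in epsilon cells, against 30259 ± 7683 in vector cells. It fell in alpha, beta and epsilon cells (log2 -1.28, -0.87 and -1.18, adjusted p = 4.9e-05, 0.00354 and 1.3e-04). Its log2 difference in delta cells was -0.04.

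Of 11 measured glutathione S-transferases, 2 rose and 1 fell in alpha cells, and 2, 1 and 2 rose and 0 fell in beta, delta and epsilon cells. Of these 8 calls, 6 were lost in at least 1 of the 28 other fits, and the other 2 were Mgst1 in alpha and epsilon cells. Mgst1, a microsomal enzyme of this kind, rose in alpha and epsilon cells (log2 1.53 and 0.72, adjusted p = 7.0e-07 and 0.00188). Its rise in delta cells (log2 0.82, adjusted p = 0.00847) was lost in 3 of the 28 other fits. Of 10 other thioredoxin and peroxiredoxin genes, 0 rose and 1 fell in alpha cells, 1 rose and 1 fell in beta cells, 2 rose and 3 fell in epsilon cells, and 0 were called in delta cells, where 0 had an unadjusted p under 0.05. Srxn1, the sulfiredoxin that repairs overoxidised peroxiredoxins, fell in alpha and epsilon cells on its brighter probe set (log2 -1.09 and -1.03, adjusted p = 2.1e-04 and 4.0e-04). Its dimmer probe set disagreed (log2 0.02 and 0.50, adjusted p = 0.978 and 0.231). In beta cells the brighter Srxn1 probe set fell too (log2 -0.73, adjusted p = 0.00932), a call lost in 2 of the 28 other fits. The dimmer one read log2 0.12 there (adjusted p = 0.842).

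Among 4 superoxide dismutases and catalase, 2 rose in alpha, 1 in beta, 0 in delta and 2 in epsilon cells, and 0 fell. Sod3, the secreted form, averaged 10415 ± 1314 units in epsilon cells, against 3210 ± 98.3 in vector cells (log2 1.69, adjusted p = 7.5e-06). Sod2, the mitochondrial form, averaged 4124 ± 543 units in alpha cells, against 2067 ± 560 in vector cells (log2 1.02, adjusted p = 0.00154). Sod3 was also called in alpha and beta cells (log2 0.75 and 0.62), calls lost in 1 and 16 of the 28 other fits. Sod2 was also called in epsilon cells (log2 0.64), a call lost in 7 of them. In delta cells 1 of the 4 had an unadjusted p under 0.05.

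Of 8 other quinone, aldehyde and xenobiotic enzymes, 1 rose and 1 fell in alpha cells, and 1, 1 and 3 rose and 0 fell in beta, delta and epsilon cells. Aldh3a1, an aldehyde dehydrogenase, averaged 1754 ± 208 units in alpha, 1419 ± 197 in beta, 2307 ± 62.5 in delta and 5168 ± 238 in epsilon cells, against 890 ± 103 in vector cells. Its rise was called in all 28 other fits in alpha, delta and epsilon cells (log2 0.98, 1.38 and 2.54, adjusted p = 3.2e-04, 1.8e-04 and 8.2e-09). Its rise in beta cells (log2 0.67, adjusted p = 0.0115) was lost in 3 of the 28 other fits.

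Among 6 genes that supply NADPH, 1 rose in alpha, 1 in beta, 0 in delta and 2 in epsilon cells, and 0 fell. In delta cells 1 had an unadjusted p under 0.05. Idh1, the cytosolic isocitrate dehydrogenase, averaged 11142 ± 915 units in alpha, 8979 ± 271 in beta, 5634 ± 570 in delta and 6706 ± 919 in epsilon cells, against 4214 ± 139 in vector cells. It rose in alpha, beta and epsilon cells (log2 1.40, 1.09 and 0.66, adjusted p = 5.5e-07, 3.6e-05 and 0.00149).

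Of 11 measured genes of heme synthesis, heme breakdown and ferritin, 0 were called in any C/EBP group by limma's test, while 2, 1, 1 and 2 had an unadjusted p under 0.05 in alpha, beta, delta and epsilon cells. Hmox2, the constitutive heme oxygenase, averaged 1177 ± 86.6 units in alpha, 1253 ± 350 in beta, 1284 ± 197 in delta and 1372 ± 158 in epsilon cells, against 1404 ± 255 in vector cells. The ferritin heavy chain Fth1, which stores the iron that heme oxygenase frees, averaged 90789 ± 14299, 82521 ± 12867, 95607 ± 7631 and 89017 ± 18120 units in alpha, beta, delta and epsilon cells, against 101017 ± 12817 in vector cells.

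**Figure D5:**
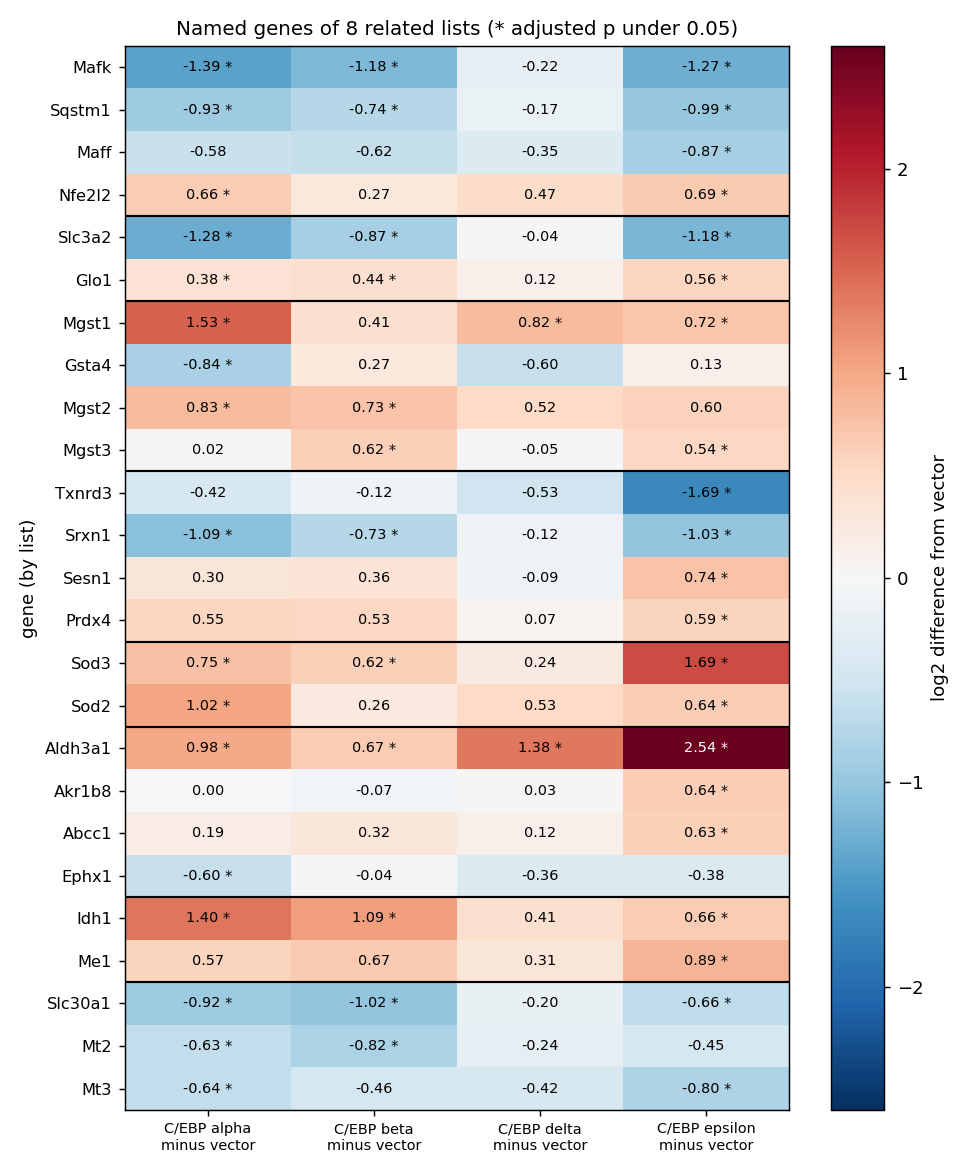
Log2 difference from vector (colour and printed value) of the 25 genes named from 8 related lists, in rows grouped by list, with 1 column per C/EBP; a star marks an adjusted p under 0.05. Mafk, Sqstm1, Slc3a2, Srxn1 and Slc30a1 are below 0 in every column and starred in alpha, beta and epsilon cells, and Aldh3a1 is starred in all 4 columns; 30 of the 52 starred values were lost in at least 1 of the 28 other fits.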

How the data were processed

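Biotinylated cRNA was hybridised to Affymetrix MG_74Av2 arrays and the authors made 1 linear intensity per probe set with Microarray Suite 5.0, per the labels' protocols. The 2% trimmed mean of the deposited values was 2501.12 to 2501.39 on every array, so they had been scaled to a common mean. Detection calls were not used here.

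The 66 control probe sets among 12488 were removed. Signals were scaled by the ratio of the mean array median to the array's own median (factors 0.946 to 1.10), floored at the 20th percentile of all values together (190 units) and converted to log2. A probe set entered the test where it exceeded the median of all values (1092 units) on 3 or more of the 15 arrays. Of the 12422 kept, 10833 named 1 gene in the platform annotation, 396 several and 1193 none. Limma 3.58.1 in R 4.3.3 fitted all arrays with 1 coefficient per group (lmFit, contrasts and eBayes with a trend). Two-sided p-values were adjusted within each contrast (Benjamini-Hochberg, 6963 probe sets), with a threshold of 0.05. The script was tested on simulated data. The number of arrays limits the precision.

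The genes, the related lists, the motifs and the tests were chosen with earlier results of these data known. All 9 probe sets are reported. From each related list up to 4 genes were named, those with the largest called difference from vector, and for Hmox1 the 5 most alike probe sets. Alternatives were other scalings, floors and filters, no trend, array weights, a replicate block, fits of 2 groups alone, and leaving out single arrays or the 5 arrays numbered 1.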

Additional observations from a re-analysis of the deposited data

How the results depend on the processing

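The results were refitted under 13 alternatives (12 for the F-test) and without each of the 15 arrays. No result changed direction while called. Hmox1 in alpha, beta and epsilon cells, Glrx in alpha, beta and epsilon cells and Gsr in alpha and epsilon cells were called in every fit. Counts that moved by more than 1.5 times follow, with the contrast named first over second. The cause of these shifts was not tested, and the fits of the last 2 sets also had fewer arrays. Quantile normalization called 39 probe sets for delta over vector, 299 for beta over alpha, 142 for epsilon over alpha, 580 for delta over beta, 284 for epsilon over beta, and 5 of the 8 genes for delta over alpha. With no further scaling the counts were 142 for epsilon over alpha, 526 for delta over beta and 253 for epsilon over beta. Scaling by the median ratio called 5 genes for delta over alpha. A floor at the 40th percentile or a filter on all arrays of a group called 2 genes for beta over alpha. No filter or no trend called 1 gene for delta over beta. Array weights called 1576, 74 and 1730 probe sets for beta, delta and epsilon over vector, 434 for beta over alpha, 930 for delta over alpha, 1284 for delta over beta, 950 for epsilon over beta, 1506 for epsilon over delta and 2442 by the F-test, with 2 genes for beta over alpha and 6 for epsilon over delta.

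With the replicate block 1099 and 44 probe sets were called for beta and delta over vector, 347 for beta over alpha, 990 for delta over alpha, 171 for epsilon over alpha, 684 for delta over beta, 310 for epsilon over beta, 1037 for epsilon over delta and 1820 by the F-test. Calls against vector that the block added among the 8 genes were Gclm in alpha and epsilon cells (adjusted p = 0.0100 and 0.00695), Gclc and Txn1 in epsilon cells (0.0122 and 0.0321) and the brighter Nqo1 probe set in alpha cells (0.0487), and Hmox1 was called for beta over alpha (0.00189). The block also added calls among the alike and related genes, with Apbb1ip in delta cells (0.0264) and Ephx1 in epsilon cells (0.0476) among them. The block called 5 genes for alpha over vector and 6 for epsilon over vector, 2 for beta over alpha, 5 for delta over alpha and 5 for epsilon over delta. Same-numbered arrays correlated in their deviations from the group means at -0.069 to 0.439, above 0.1 in 20 of 30 pairs (10 of 10 for number 1, 8 of 10 for number 2 and 2 of 10 for number 3). Arrays of different numbers correlated at -0.428 to 0.245, above 0.1 in 3 of 60 pairs. Because not every same-numbered pair passed 0.1 and the labels do not define the number, it was not taken to pair the samples, and a shared source of the same-numbered arrays was not tested. Of the 15 arrays 13 correlated best with their own number, a hint from the data and not from the design. With the 2 groups compared alone, 15 and 690 probe sets were called for delta and epsilon over vector and 72 for epsilon over beta, with 0 genes for delta over vector and 1 for epsilon over beta. Without the 5 arrays numbered 1, 654, 339, 11 and 693 probe sets were called for alpha, beta, delta and epsilon over vector, 42 for epsilon over alpha, 134 for delta over beta, 71 for epsilon over beta, 365 for epsilon over delta and 690 by the F-test, with 0 genes for delta over vector and 1 each for delta over beta and epsilon over beta.

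Without 1 array at a time, the calls ranged from 743 to 1028 for alpha, 372 to 695 for beta, 13 to 29 for delta and 750 to 1153 for epsilon over vector, 149 to 219 for beta over alpha, 382 to 629 for delta over alpha, 55 to 108 for epsilon over alpha, 189 to 381 for delta over beta, 85 to 180 for epsilon over beta, 342 to 628 for epsilon over delta and 905 to 1139 by the F-test. Of the 8 genes, 3 to 4 were called for alpha, 2 to 4 for beta, 1 for delta and 3 for epsilon over vector, 1 to 2 for beta over alpha, 2 to 4 for delta over alpha, 0 for epsilon over alpha, 1 to 2 for delta over beta and for epsilon over beta, 2 to 3 for epsilon over delta, and 3 to 5 by the F-test.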
